A study of Homo sapiens with 6 samples.

Results

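The human mitochondrial genome holds 37 genes, of which 13 encode proteins, 2 encode ribosomal RNAs and 22 encode transfer RNAs. Its genes were followed in Kasumi-1, an established acute myeloid leukaemia line with the t(8;21) fusion of RUNX1 and RUNX1T1. Members were all rows of the deposited expression table whose Ensembl identifier lies on the mitochondrial chromosome in GENCODE 29 (GRCh38), with nuclear copies left out. Of the 27576 genes in the table, 17 were members: all 13 protein-coding genes, both rRNA genes, and the tRNA genes MT-TF and MT-TP. The 20 other tRNA genes (MT-TV, MT-TL1, MT-TI, MT-TQ, MT-TM, MT-TW, MT-TA, MT-TN, MT-TC, MT-TY, MT-TS1, MT-TD, MT-TK, MT-TG, MT-TR, MT-TH, MT-TS2, MT-TL2, MT-TE and MT-TT) were not analysed here, and the table holds 0 genes that are at 0 in all 6 libraries. Cells grown with 20% fetal bovine serum received 10 ng/ml of recombinant human interleukin-10 (IL-10), a cytokine that signals through STAT3, or 0.5% bovine serum albumin as control, for 72 h. Each group had 3 libraries from total RNA, and no label says whether they are separate cultures, so each p-value here rests on the spread of these libraries, which may be technical. The deposited table is labelled FPKM, but its values are whole multiples of 1 step per library for genes of every length, as read counts divided by 1 factor per library give. They are therefore called normalised read counts here, given as mean ± SD (n = 3) unless shown per library.

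Mitochondrial DNA is a small circle transcribed from both strands into long precursors, from which tRNAs are cut out and the mRNAs and rRNAs between them are released. The mRNAs encode core subunits of respiratory complexes I, III and IV and of the ATP synthase (complex V), while all other subunits, the polymerase and the ribosomal proteins come from the nucleus. Most genes are read from the heavy strand promoter, and MT-ND6 is the only mRNA made from the other strand. Most of these mRNAs carry short poly(A) tails and MT-ND6 does not, while the mitochondrial rRNAs have tails of a few bases at most. Whether poly(A) RNA was selected is not given in the sources used here. Blasts of acute myeloid leukaemia are known to rely on oxidative phosphorylation.

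Depth was 20750115 to 24222897 recovered reads per library. The myeloblast markers RUNX1T1 (3071 to 3878), KIT (29296 to 54533), CD34 (11415 to 14919), MPO (66945 to 160649) and CD33 (1584 to 2280.2) had reads in every library. IL-10 replicate 2 stood apart: on the first principal component, which held 40.2% of the variance, it scored 95.3 and the other 5 libraries -43.1 to 30.1. Of 10505 genes whose mean reached 100, 35.5% were 1.5-fold or further apart between the libraries of pair 2, against 0.105% in pair 1 and 0.0476% in pair 3. Both replicate 2 libraries also held reads of hepatocyte genes: 7 of 7 markers had reads there against 2 or 3 in the other libraries, and APOB was at 222 and 70.5 in them and at 0 elsewhere. The summed level of that list, of which SERPINA1 made up most, was 1321 to 1539 in control and 1327 to 1680.2 with IL-10. In control and IL-10 libraries the summed level was 2030 to 2100 and 1651 to 2023 for airway epithelial markers, 1696 to 2453 and 1814 to 2700 for T and NK cell markers and 276 to 326 and 259.7 to 434 for B cell markers. CD3D (1593 to 2560) made up most of the T and NK sum, where NCAM1 reached at most 1.18. CD79A (168 to 303) made up most of the B cell sum, where MS4A1 reached at most 1.86. EPCAM made up most of the airway sum, and 4 of its 6 markers were lower in each IL-10 library than in each control library. SCGB3A1 was at 57.8 to 75.6 in control and 23.5 to 24.7 with IL-10, BPIFA1 at 40.1 to 42.7 and 14.1 to 22.8, SLPI at 38.2 to 55.2 and 21.8 to 25.7, and WFDC2 at 24.02 to 28.8 and 11.8 to 16.5. The part of these transcripts in the mitochondrial values was not tested.

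A pair of members, MT-ATP8 and MT-ND4L, share 46 and 7 bases with the gene that follows them, which bears on how their reads can be told apart. MT-ATP6 also ends on the base at which MT-CO3 begins (chrM:9207). The sequences below are the GENCODE 29 transcripts on GRCh38, 5′ to 3′, with the shared bases in capitals. In MT-ATP8 (chrM:8366-8572, plus strand, exonic throughout) 46 of 207 bases also belong to MT-ATP6 (chrM:8527-9207), and in MT-ND4L (chrM:10470-10766, plus strand) 7 of 297 also belong to MT-ND4 (chrM:10760-12137).
MT-ATP8: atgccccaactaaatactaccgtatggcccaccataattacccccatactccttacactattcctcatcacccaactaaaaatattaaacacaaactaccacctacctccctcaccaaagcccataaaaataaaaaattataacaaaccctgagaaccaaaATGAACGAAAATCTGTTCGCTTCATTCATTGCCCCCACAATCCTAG
MT-ND4L: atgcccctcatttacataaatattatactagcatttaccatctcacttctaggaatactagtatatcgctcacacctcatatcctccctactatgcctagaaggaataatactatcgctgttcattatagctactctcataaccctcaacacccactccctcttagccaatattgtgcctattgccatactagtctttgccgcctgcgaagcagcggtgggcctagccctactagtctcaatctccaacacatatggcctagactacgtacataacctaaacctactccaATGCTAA
The only tRNA genes with a row are shown next because MT-TP was read at 611 to 1054 normalised reads and MT-TF hardly at all. MT-TP (chrM:15956-16023) lies on the minus strand beyond MT-CYB, and MT-TF (chrM:577-647) on the plus strand directly before MT-RNR1.
MT-TP: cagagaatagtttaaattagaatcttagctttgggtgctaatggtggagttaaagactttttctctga
MT-TF: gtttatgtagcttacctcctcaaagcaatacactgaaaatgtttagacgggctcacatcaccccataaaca
How reads over shared bases were counted, and whether the counting used strand, is not given in the sources used here. Without strand, reads of MT-ND6 and MT-TP cannot be told apart from transcripts of the opposite strand at the same place.

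Mitochondrial genes made up about the same share of each library with and without IL-10. Their share of all reads was 3.60%, 3.28% and 3.01% in control replicates 1 to 3 and 3.60%, 3.34% and 3.03% in IL-10 replicates 1 to 3. Libraries of the same number lay close together, with the replicate 1 libraries highest and the replicate 3 libraries lowest in both groups. Group means were 3.29% ± 0.296 and 3.32% ± 0.284, and the IL-10 minus control difference was 0.00201, 0.0593 and 0.0279 percentage points in pairs 1, 2 and 3. The mean difference, 0.0298 points, was less than the SD of either group, and no test is given for a sum over members. Counting intervals (95%, Wilson) were narrow beside these differences between replicates, for example 3.59% to 3.61% in control replicate 1 and 3.27% to 3.29% in control replicate 2, and they cover counting error only. In bulk RNA, fewer cells of a type, fewer mitochondria per cell and less RNA per mitochondrion cannot be told apart.

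**Figure D1:**
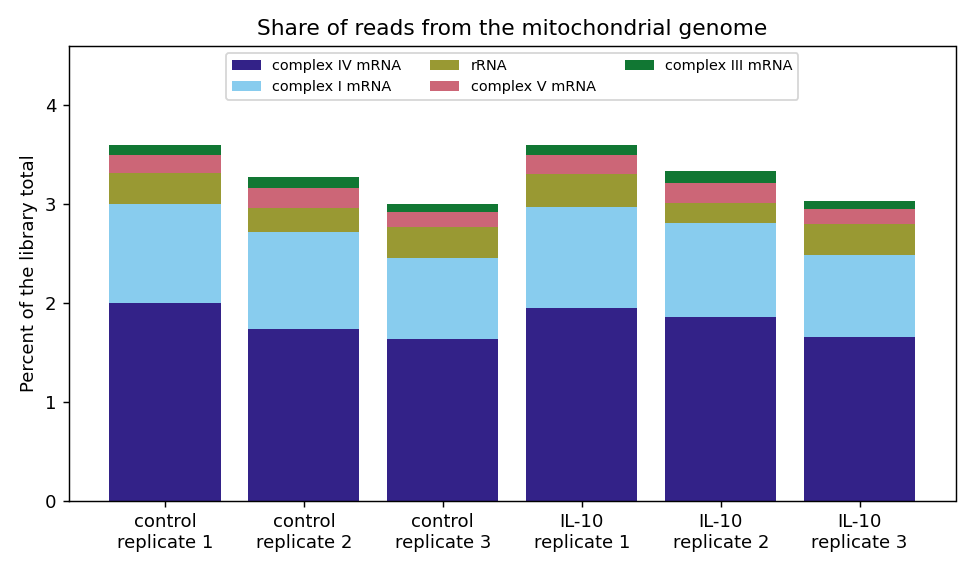
Percent of each library's total read count that came from mitochondrial genes (y axis) in the 6 libraries (x axis), stacked by rRNA and by the respiratory complex the mRNAs belong to, with the tRNA genes too few to draw. Bars reach 3.60%, 3.28% and 3.01% in control and 3.60%, 3.34% and 3.03% with IL-10, and complex IV mRNAs are the tallest layer in each.

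Within the mitochondrial reads, the 3 cytochrome c oxidase mRNA genes took 52.9% to 55.8% of a library, the 7 complex I mRNA genes 27.3% to 30.0%, the 2 ATP synthase mRNA genes 4.88% to 6.28% and MT-CYB, the only complex III mRNA gene, 2.67% to 3.56%. The rRNAs made up 5.93% to 10.5%, and the widest counting interval of any of these shares reached 0.118 points to either side. The rRNA share stood at 8.62, 7.43 and 10.5 in controls and 9.22, 5.93 and 10.5 after IL-10 (percent, replicates 1 to 3 in order). It was thus lowest in the replicate 2 libraries and highest in the replicate 3 libraries of both groups. MT-CO1 alone, which encodes the catalytic subunit of complex IV, held 30.9% to 34.7% of the mitochondrial reads. By normalised read count it ranked first or second of all 27576 genes in every library, while MT-CO2, MT-CO3, MT-ND4, MT-ND5, MT-ATP6 and MT-RNR2 were also among the first 100 in every library.

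Levels were compared between genes as normalised reads per kilobase of annotated length. The complex IV mRNAs were highest: MT-CO1 stood at 154362 ± 20027 in control cells and 165488 ± 25461 after IL-10, MT-CO3 at 108419.9 ± 9160.3 in control cells and 122216 ± 16428 after IL-10, and MT-CO2 at 100958 ± 13137 in control cells and 117778 ± 33583 after IL-10. MT-CO1 exceeded MT-CO3 in 6 of 6 libraries, while MT-CO3 exceeded MT-CO2 in only 4, so the order of these last 2 did not hold across libraries. Next came MT-ND3, MT-ATP6 and MT-ND4, at means over 6 libraries of 61857, 60672 and 60606 per kilobase, whose ranges overlapped and whose order varied between libraries. All 6 of these mRNAs lay above MT-RNR2 (32092) in every library. As background, the mitochondrial rRNAs are more abundant than the mRNAs in cells.

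MT-ND1 (29977) and MT-ND2 (27231), subunits of the membrane arm of complex I, followed by mean, with MT-ND1 above MT-ND2 in 6 of 6 libraries. MT-RNR2 exceeded MT-ND1 in only 4 of 6, since both MT-ND1 and MT-ND2 lay above it in the replicate 2 libraries. MT-ND5 (20052), MT-CYB (20014) and MT-ND4L (19701) could not be ordered, since each neighbour exceeded the next in 3 or 4 of 6 libraries. MT-ND6 (16626), the light-strand mRNA, MT-RNR1 (15037), the small-subunit rRNA, and MT-TP (12929.6), the proline tRNA gene, made up the lower end. Whether reads over the 68 bases of MT-TP came from the mature tRNA was not tested. MT-CO1 was 9.62-fold above MT-ND6 per kilobase. By reads assigned, MT-ATP8 was far below every other mRNA gene, at 176, which is 73.4-fold below MT-TP, the next gene in the order. MT-ATP8 is read from the same mRNA as MT-ATP6 (60672), so this value does not give the level of that mRNA. Of its 207 bases, 161 lie outside the overlap with MT-ATP6, and why few reads were assigned to it was not tested.

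**Figure D2:**
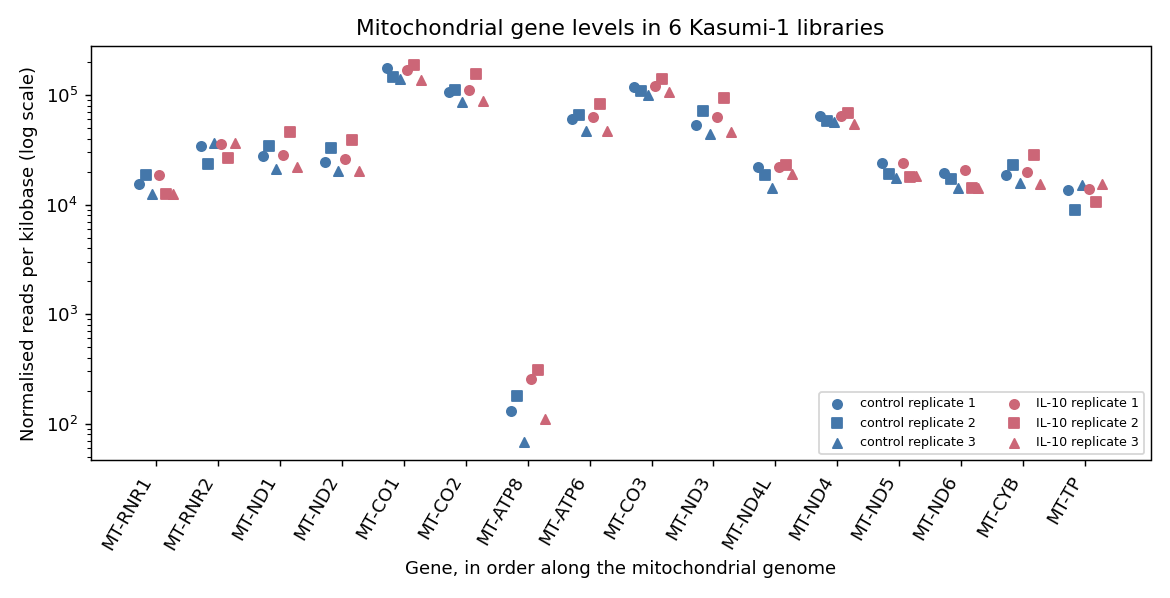
Normalised reads per kilobase (log y axis) of 16 mitochondrial genes in order along the genome (x axis), 1 point per library, blue for control and red for IL-10, with the shape giving the replicate number; MT-TF, at 0 in 4 libraries, is not drawn. MT-CO1, MT-CO2 and MT-CO3 lie highest and MT-ATP8, which shares its mRNA with MT-ATP6, lies far below the rest by reads assigned in all 6 libraries.

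IL-10 against control asks whether mitochondrial transcripts differed after 72 h of the cytokine, and 0 of the 16 members tested passed the threshold in either direction (limma, lowest adjusted p = 0.982). Over all 21946 genes tested the share called was 0%, with 344 genes, or 1.57%, at an unadjusted p under 0.05, against 0 of 16 members. edgeR on recovered reads also called 0 genes (257 unadjusted, 1.17%, 0 of them members) and DESeq2 0 (94 unadjusted, 0.428%, 0 of them members). The control and IL-10 values overlapped in all 17 members, where the groups did not overlap in 5.87% of all genes tested, with IL-10 above in 2.85% and below in 3.02%. Of the 16 members, 13 had a log2 fold change above 0, with a median of 0.12, beside 52.0% above 0 and a median of 0.02 over all genes. Across alternatives the number of these 16 above 0 ran from 6 with quantile normalization to 15 with sample weights or without control replicate 1. It was 10 with equal library totals, and 14 with pairs 1 and 3 only or without IL-10 replicate 3. Without IL-10 replicate 2, in a fit that keeps control replicate 2, there were 8 above 0, with fold changes of -0.14 to 0.51. The 95% intervals of the 15 members other than MT-ATP8 reached from -0.61 to 0.87 on the log2 scale. They come from the fit without the replicate block, so their width includes the spread between replicate numbers. Upper bounds were lowest for MT-RNR1 (0.40), MT-ND6 (0.41), MT-ND5 (0.45) and MT-ND4 (0.49), so increases of up to these sizes lie within the intervals even there.

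**Figure D3:**
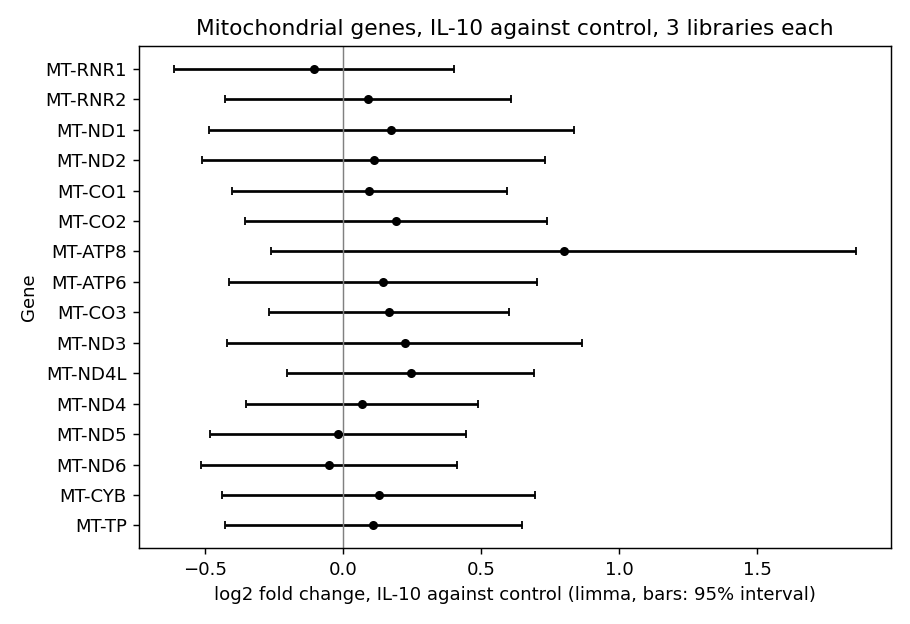
Log2 fold change of IL-10 against control (x axis) for 16 mitochondrial genes (y axis, in genome order), as points with 95% intervals from limma on 3 libraries a group. Every interval includes 0, and MT-ATP8 has the highest value (0.80) and the widest interval.

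Complex IV subunits form the catalytic core of cytochrome c oxidase, which passes electrons to oxygen. MT-CO1 (chrM:5904-7445) stood at 273116, 225972 and 214988 in control replicates 1 to 3 and 262075, 290541 and 212931 in IL-10 replicates 1 to 3. MT-CO2 (chrM:7586-8269), which carries the copper centre that accepts electrons from cytochrome c, stood at 72642, 75694 and 58831 in control replicates 1 to 3 and 75585, 105611 and 60484 in IL-10 replicates 1 to 3. MT-CO3 (chrM:9207-9990), the third core subunit, stood at 91995, 85363 and 77646 in control replicates 1 to 3 and 95498, 108854 and 83101 in IL-10 replicates 1 to 3. In each of these genes IL-10 replicate 2 was the highest library, and the replicate 3 libraries of both groups were the lowest. Log2 fold changes were 0.10 (95% interval -0.40 to 0.59) for MT-CO1, 0.19 (95% interval -0.35 to 0.74) for MT-CO2 and 0.17 (95% interval -0.27 to 0.60) for MT-CO3, none past the threshold in limma (adjusted p = 0.982).

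Complex I, which takes electrons from NADH, has 7 mitochondrial subunits. The proton-pumping subunits MT-ND4 (chrM:10760-12137) and MT-ND5 (chrM:12337-14148) were the most abundant by count. MT-ND4 stood at 87826, 79001 and 77227 in control replicates 1 to 3 and 88958, 93601 and 74475 in IL-10 replicates 1 to 3. MT-ND5 stood at 43701, 34303 and 31658 in control replicates 1 to 3 and 43202, 31976 and 33162 in IL-10 replicates 1 to 3. MT-ND4 thus spanned a narrow range, and MT-ND5 was high in the replicate 1 libraries and low in the other 4. MT-ND1 (chrM:3307-4262), at the quinone site, stood at 26586, 32603 and 20279.5 in control replicates 1 to 3 and 27134, 44245 and 21102 in IL-10 replicates 1 to 3. MT-ND2 (chrM:4470-5511), another pump subunit, stood at 25499, 34319 and 21293 in control replicates 1 to 3 and 27166, 40772 and 21203 in IL-10 replicates 1 to 3. MT-ND3 (chrM:10059-10404), which joins the membrane arm to the peripheral arm, stood at 18430.4, 24709 and 15356 in control replicates 1 to 3 and 21745, 32346 and 15829 in IL-10 replicates 1 to 3. These 3 shared a pattern that MT-ND5 did not: the replicate 2 library was the highest in each group and the replicate 3 library the lowest. MT-ND6 (chrM:14149-14673, minus strand), the light-strand subunit, stood at 10133, 8969 and 7439.6 in control replicates 1 to 3 and 10822, 7507 and 7502 in IL-10 replicates 1 to 3, with the replicate 1 libraries highest. None passed the threshold (limma adjusted p = 0.982 to 0.995), and the fold changes ran from -0.05 for MT-ND6 to 0.25 for MT-ND4L.

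MT-ND4L, the small complex I subunit encoded on the same mRNA as MT-ND4, stood at 6508, 5488 and 4179 in control replicates 1 to 3 and 6572, 6769 and 5590.5 in IL-10 replicates 1 to 3. Control replicate 3 was the lowest library, and the other 5 mixed control and IL-10 values, so the groups overlapped. As a percent of the read count of MT-ND4, not corrected for length, MT-ND4L stood at 7.41, 6.95 and 5.41 in controls and 7.39, 7.23 and 7.51 after IL-10, which sets control replicate 3 apart from the other 5 libraries. Over all 6 libraries the log2 fold change of MT-ND4L was 0.25 (95% interval -0.20 to 0.69). In a fit of pairs 1 and 3 only, with the replicate number as a block, it was the 1 member of 16 past the threshold (log2 fold change 0.22, limma adjusted p = 0.00218), where 0.0456% of all genes were called (10, of which 9 were higher with IL-10, or 0.041%). That fit has 1 residual degree of freedom, and the log2 ratios it averaged were 0.01 in pair 1 and 0.42 in pair 3. Without control replicate 3 the log2 fold change over the other 5 libraries was 0.07.

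MT-CYB (chrM:14747-15887), cytochrome b of complex III, stood at 21008, 25968 and 17801 in control replicates 1 to 3 and 22396, 32245 and 17599 in IL-10 replicates 1 to 3. MT-ATP6, the proton channel subunit of the ATP synthase, stood at 40686, 44228 and 31688 in control replicates 1 to 3 and 42545, 56824 and 31934 in IL-10 replicates 1 to 3. Both followed the pattern of MT-ND1, with IL-10 replicate 2 highest and the replicate 3 libraries lowest. Their log2 fold changes were 0.13 (95% interval -0.44 to 0.70) and 0.15 (95% interval -0.41 to 0.70), neither past the threshold (limma adjusted p = 0.982).

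MT-ATP8, an accessory membrane subunit of the ATP synthase read from the same mRNA as MT-ATP6, was counted at 16 to 55 reads a library where MT-ATP6 had 33622 to 48346. Its normalised values were 27.0, 36.8 and 14.2 in control replicates 1 to 3 and 53.4, 64.6 and 22.8 in IL-10 replicates 1 to 3. It was higher with IL-10 within each pair, but IL-10 replicate 3 lay below control replicates 1 and 2, so the groups overlapped. Its log2 fold change of 0.80 (95% interval -0.26 to 1.86) was the highest of the members and did not pass the threshold (limma adjusted p = 0.982). Within pairs the log2 ratio was 0.98 (exact 95% counting interval 0.30 to 1.70, from 29 and 50 reads), 0.81 (0.19 to 1.46, from 37 and 55 reads) and 0.68 (-0.29 to 1.69, from 16 and 24 reads). The interval of pair 3 includes 0, and these intervals compare libraries, not conditions. With 46 of its 207 bases shared with MT-ATP6, as marked in capitals in the sequence above, the count of MT-ATP8 is uncertain, and so is its ratio to MT-ATP6. The other 161 bases lie outside MT-ATP6, and why the count was so low was not tested.

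The rRNAs of the mitochondrial ribosome had different patterns across the libraries. MT-RNR1 (chrM:648-1601), which encodes the 12S rRNA, stood at 14799.8, 17796 and 11915 in control replicates 1 to 3 and 17689, 11975 and 11899.9 in IL-10 replicates 1 to 3. MT-RNR2 (chrM:1671-3229), which encodes the 16S rRNA, stood at 53037, 36576 and 56306 in control replicates 1 to 3 and 55904, 41786 and 56577 in IL-10 replicates 1 to 3. MT-RNR1 was highest in control replicate 2, the library in which MT-RNR2 was lowest. Their log2 fold changes were -0.11 (95% interval -0.61 to 0.40) and 0.09 (95% interval -0.42 to 0.61), neither past the threshold (limma adjusted p = 0.982). MT-TP stood at 916, 611 and 1024 in control replicates 1 to 3 and 950.1, 720.5 and 1054 in IL-10 replicates 1 to 3, lowest in the replicate 2 libraries, with a log2 fold change of 0.11 (95% interval -0.43 to 0.65). MT-TF had 0, 0 and 1 reads in control and 0, 2 and 0 reads with IL-10, so it did not pass the filter on low values and no fold change is given. By the floor of 3 reads used here (the two-sided exact 95% bound is 3.69 reads), a count of 0 allows a normalised value of 2.79 for control replicate 1 and of 3.21 for IL-10 replicate 1.

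Ratios between neighbouring genes were compared in 4 pairs by a two-sided exact permutation test over the 6 libraries, which cannot give a p below 0.1 with 3 against 3. They are ratios of normalised read counts, not corrected for gene length, so they do not give relative abundance. Per kilobase the means over 6 libraries were 16626 for MT-ND6 and 20052 for MT-ND5, and 15037 for MT-RNR1 and 32092 for MT-RNR2. By count, MT-ND6 stood at 23.2, 26.1 and 23.5 in controls and 25.1, 23.5 and 22.6 after IL-10 (percent of MT-ND5). The count of the light-strand mRNA thus kept within 22.6% and 26.1% of that of its heavy-strand neighbour. MT-RNR1 ranged more widely, at 27.9, 48.7 and 21.2 in controls and 31.6, 28.7 and 21.03 after IL-10 (percent of MT-RNR2), with control replicate 2 well above the other 5 libraries. The IL-10 minus control difference in log2 ratio was -0.03 (exact p = 0.6, 0.8 adjusted over the 4 ratios) for MT-ND6 to MT-ND5 and -0.20 (exact p = 0.8, 0.8 adjusted over the 4 ratios) for MT-RNR1 to MT-RNR2. It was 0.65 (exact p = 0.2, 0.6 adjusted over the 4 ratios) for MT-ATP8 to MT-ATP6, higher in 3 of 3 pairs, and 0.18 (exact p = 0.3, 0.6 adjusted over the 4 ratios) for MT-ND4L to MT-ND4, higher in 2 of 3 pairs. Without control replicate 2 the difference for MT-RNR1 to MT-RNR2 was 0.14.

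The members varied by replicate number more than by treatment in pairs 1 and 3. The log2 ratio of IL-10 to control had a median over the 16 members with reads in every library of 0.06 in pair 1 (-0.06 to 0.98) and 0.03 in pair 3 (-0.05 to 0.68), and lay within 0.1 of 0 in 13 and 14 of them. In pair 2, which holds IL-10 replicate 2, the median was 0.31 (-0.57 to 0.81) and 0 of 16 lay within 0.1 of 0. Across all genes tested the medians were 0.00, 0.03 and 0.00. The summed member count had a log2 ratio of 0.31 in pair 2, while the members' share of the library went only from 3.28% to 3.34%. The normalised values of IL-10 replicate 2 thus add up to a larger total than those of control replicate 2. Pair 2 ratios and levels of that IL-10 library carry this scaling. With equal library totals the median log2 fold change over all 6 libraries was 0.02 for the members and -0.08 for all genes. In all 16 members the log2 range among the 3 control libraries alone, 0.19 to 1.37, exceeded the ratio in pair 1 and that in pair 3. A range over 3 libraries tends to be wider than a ratio of 2, and it takes in control replicate 2 while pair 2 is left out. The comparison is therefore a description only. Of the 13 mRNA genes, 13 were lowest in replicate 3 among the controls and 12 among the IL-10 libraries, and 11 had their highest normalised count of all 6 libraries in IL-10 replicate 2. As a share of the library total, their sum was instead highest in control replicate 1 (3.28%), with 3.14% in IL-10 replicate 2. By normalised count, MT-ND1 in IL-10 replicate 2 lay 0.79 above the mean of the other 5 libraries on the log2 scale and MT-ND3 0.75, while MT-ND5 (-0.22), MT-ND6 (-0.26), both rRNAs (-0.31 and -0.31) and MT-TP (-0.34) lay below it. Across the 13 mRNA genes, whose GC content runs from 39.6% to 47.7%, this deviation had a Pearson correlation of -0.19 and a Spearman correlation of -0.06 with GC content, given as a description of genes that share 1 library. Both replicate 2 libraries held the hepatocyte marker reads given above, whose part in the mitochondrial values was not tested.

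**Figure D4:**
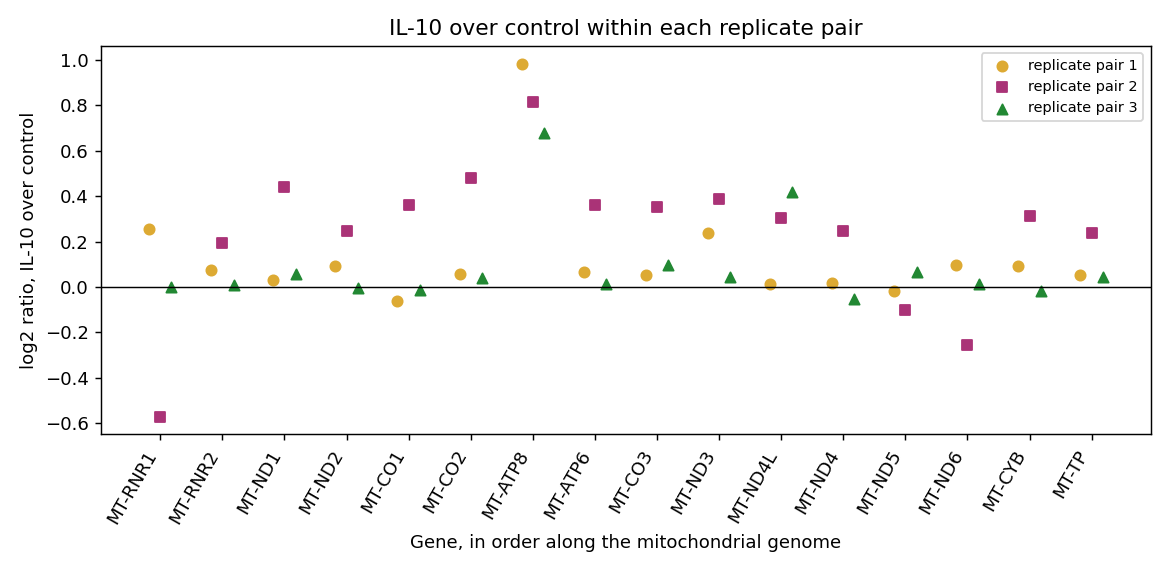
Log2 ratio of IL-10 to control (y axis) within each replicate pair for 16 mitochondrial genes in genome order (x axis), 1 point per pair. Pairs 1 and 3 lie near 0 except for MT-ATP8, MT-ND3 and MT-RNR1 in pair 1 and MT-ATP8 and MT-ND4L in pair 3, while pair 2 runs from -0.57 to 0.81. Pair 2 ratios carry the larger normalised total of IL-10 replicate 2.

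The genes outside the mitochondrial genome whose log2 values followed the summed mitochondrial mRNAs most closely across the 6 libraries, of 10490 with a mean of at least 100, were FYCO1 (Pearson r = 0.996), SNX27 (0.993) and P2RY2 (0.993). The median r over these genes was 0.314. With 6 libraries, of which IL-10 replicate 2 stands apart, these values describe likeness only. P2RY2, which encodes a nucleotide receptor, stood at 125, 109 and 72.1 in control replicates 1 to 3 and 116, 199.8 and 69.3 in IL-10 replicates 1 to 3, highest in IL-10 replicate 2 and lowest in the replicate 3 libraries.

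Nuclear copies of mitochondrial genes were left out of the members, but their rows bear on how far reads of the members can be assigned. The table held 47 such pseudogenes, and 7 had a mean of at least 10. Of these, 6 lie side by side on chromosome 1 (chr1:629062-634922, plus strand), in a stretch that is 98.1% to 98.7% identical to the mitochondrial genes over the aligned bases. MTATP6P1 (chr1:633696-634376) differs from MT-ATP6 at 10 of 681 bases. A stretch of 120 bases of each is shown because it holds 4 of these differences, the most that any window of its length holds, with the differing bases in capitals (MT-ATP6 at chrM:8599-8718, MTATP6P1 at chr1:633768-633887).
MT-ATP6: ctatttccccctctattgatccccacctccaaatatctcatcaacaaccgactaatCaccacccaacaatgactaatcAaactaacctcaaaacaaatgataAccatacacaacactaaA
MTATP6P1: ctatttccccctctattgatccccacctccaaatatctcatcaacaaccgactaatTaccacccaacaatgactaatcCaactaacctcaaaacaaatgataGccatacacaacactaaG
Counted from 1 at the first base of MT-ATP6, these are C129T, A151C, A175G and A192G, with the base of MT-ATP6 first. Reads that cover none of the 10 differences cannot be told apart between gene and copy.

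MTATP6P1 stood at 1696, 1856 and 1151 in control replicates 1 to 3 and 1882, 2757 and 1384 in IL-10 replicates 1 to 3, which is 3.63% to 4.85% of MT-ATP6. It followed MT-ATP6 in being highest in IL-10 replicate 2 and lowest in control replicate 3, with a log2 ratio of 0.15, 0.57 and 0.27 in pairs 1, 2 and 3. MTCO1P12 held 0.147% to 0.243% of the value of MT-CO1, and MTND2P28 0.658% to 0.986% of that of MT-ND2. MTCO2P12, MTCO3P12, MTND1P23 and MTND5P11 on chromosome 5, which is 93.0% identical to MT-ND5, each stayed at or under 0.0783% of their mitochondrial gene. The 40 other copies had means of at most 6.16. Reads assigned to each copy were therefore few beside those of its own mitochondrial gene. Of the 7 copies of mean at least 10, MTATP6P1 held the highest percent of its mitochondrial gene. Its values lay above those of the members MT-TP (611 to 1054) and MT-ATP8 (14.2 to 64.6) in every library. How reads that match both a gene and its copy were counted is not given in the sources used here. MTATP8P1, 97.6% identical to MT-ATP8 and in the same stretch of chromosome 1, was not analysed here.

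**Figure D5:**
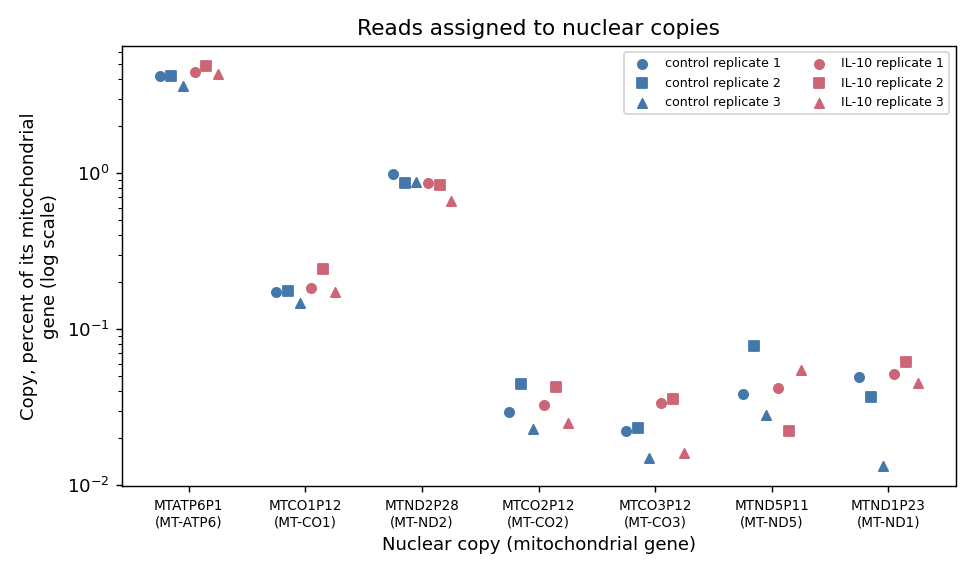
Normalised read count of 7 nuclear copies as a percent of the mitochondrial gene each resembles (log y axis), 1 point per library, blue for control and red for IL-10, with the shape giving the replicate number. MTATP6P1 lies highest, at 3.63% to 4.85% of MT-ATP6, and MTND2P28 next, at 0.658% to 0.986% of MT-ND2.

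Nuclear genes that maintain and express the mitochondrial genome were followed in 5 lists, and in each 0 members passed the threshold in either direction (limma, lowest adjusted p = 0.982, 0% of all genes called) and 0 had an unadjusted p under 0.05. Of 22 genes of mitochondrial DNA replication and transcription, 11 had a log2 fold change above 0 and 11 below, with a median of 0.00 beside 0.02 for all genes. POLRMT, the mitochondrial RNA polymerase, stood at 4856 ± 1189 in control cells and 6979 ± 5045 after IL-10, a log2 fold change of 0.32 (95% interval -0.63 to 1.27). In IL-10 replicate 2 it reached 12793, against 3747 to 6203 in the other 5 libraries. Without that library the log2 fold change was -0.23, in a fit that keeps control replicate 2 (6203). Within pairs 1 and 3 the log2 ratios of POLRMT were -0.005 and -0.078. TFAM, which packages mitochondrial DNA and activates its promoters, stood at 4180.4 ± 404 in control cells and 3716 ± 419 after IL-10, a log2 fold change of -0.17 (95% interval -0.54 to 0.20). TFB2M, the factor that opens the promoter, stood at 953 ± 218 in control cells and 846 ± 108 after IL-10, a log2 fold change of -0.16 (95% interval -0.62 to 0.30).

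Among 35 genes of mitochondrial RNA processing and decay, 18 were above 0 and 17 below, with a median of 0.02. LRPPRC and SLIRP bind each other and stabilise the mitochondrial mRNAs. LRPPRC stood at 9541 ± 239 in control cells and 8504 ± 2325 after IL-10, and SLIRP at 1745 ± 289.6 in control cells and 1878 ± 412 after IL-10. ELAC2, which cuts the 3′ ends of the tRNAs, stood at 2178 ± 432 in control cells and 2516 ± 1109.9 after IL-10. Their log2 fold changes were -0.21 (95% interval -0.71 to 0.30), 0.10 (95% interval -0.37 to 0.56) and 0.14 (95% interval -0.52 to 0.80), none past the threshold (limma adjusted p = 0.982). For LRPPRC the low library was IL-10 replicate 2, at 5824. Without that library, but with control replicate 2 kept, the log2 fold changes were 0.05 for LRPPRC, -0.07 for SLIRP and -0.20 for ELAC2. Within pairs 1 and 3 the log2 ratios were 0.05 and -0.003 for LRPPRC, 0.11 and 0.007 for SLIRP and -0.02 and -0.07 for ELAC2. In this list the groups did not overlap in 3 genes, TRMT10C, MTO1 and FASTKD3, all lower with IL-10, where 3.02% of all genes tested lay below control without overlap.

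Mitochondrial ribosomal proteins had 64 of 83 tested members above 0 and a median of 0.14, with medians of 0.06, 0.31 and -0.03 in pairs 1, 2 and 3 and of -0.06 without IL-10 replicate 2. Their most abundant member, MRPL3, stood at 6833 ± 534 in control cells and 6679 ± 576 after IL-10, a log2 fold change of -0.03 (95% interval -0.39 to 0.32). Translation factors and aminoacyl-tRNA synthetases had 22 of 33 above 0 and a median of 0.06, or 0.02, 0.15 and 0.00 by pair. TUFM, the mitochondrial elongation factor Tu, stood at 5533 ± 606 in control cells and 7070.1 ± 3221 after IL-10, a log2 fold change of 0.27 (95% interval -0.37 to 0.91), or -0.08 without IL-10 replicate 2. Of 27 nuclear partner subunits of complexes I, III, IV and V, 22 were above 0, with a median of 0.10, or 0.05, 0.36 and -0.01 by pair. ATP5F1B, the catalytic subunit of the ATP synthase, stood at 31387 ± 1129 in control cells and 35694 ± 7279.7 after IL-10, a log2 fold change of 0.17 (95% interval -0.27 to 0.60), or 0.01 without IL-10 replicate 2. The groups did not overlap in MRPL33, MRPS14, MRPL46, GATB and ATP5PO, higher with IL-10, where 2.85% of all genes lay above control without overlap, and in MRPS31, lower with IL-10. Without IL-10 replicate 2 the median was -0.06 for the translation list and 0.00 for the partner subunits, and -0.08 and -0.08 for the replication and the processing list. Each fit without IL-10 replicate 2 keeps control replicate 2, which then has no partner of its number. In pairs 1 and 3 the medians were 0.02 and -0.02 for the replication list and 0.02 and -0.04 for the processing list. For TUFM the log2 ratios in these pairs were 0.03 and -0.02. In the ribosomal protein, translation and partner lists, as in the mitochondrial genome itself, the highest pair median was that of pair 2. Pair 2 ratios again carry the larger normalised total of IL-10 replicate 2, given above.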

How the data were processed

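RNA was measured by sequencing libraries made with an Illumina TruSeq kit from total RNA of 3 control and 3 IL-10 samples, per the labels' protocols. The deposited values are a signal per gene with the pattern that whole read counts divided by 1 factor per library give. Every value in each column was a whole multiple of 1 step (100% within 0.01 of a read). Reads were recovered from these steps on that reading. For control replicate 2 the step, 0.994, is close to 1. Per the submitters' processing notes, GRCh38, hg38 and edgeR 3.18.1 were used, with no role named. The aligner, counter, annotation, strand setting and scaling method were not given in the sources used here.

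Values were matched by Ensembl identifier to GENCODE 29, where 27052 of 27576 had an entry. Values were tested in limma 3.58.1 under R 4.3.3, two-sided and with its intensity trend, on log2(value + 1), over the 21946 genes at 1 or more in at least 3 libraries, with Benjamini-Hochberg adjustment over all of them and a threshold of 0.05. Fold changes on this scale understate the change of low genes. edgeR 4.0.16 (quasi-likelihood, TMM) and DESeq2 1.42.0 on recovered reads were alternatives, beside other pseudocounts, filters and scalings, weights for samples, a replicate block and fits without 1 library. The scripts were tested on simulated data. Intervals of shares and reads, and the floor of 3 reads for a count of 0, cover counting error only.

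Members, gene lists, tests and alternatives were chosen with earlier results of these data known. Genes named were all mRNA and rRNA genes, the tRNA genes with a row, TFAM, POLRMT, TFB2M, LRPPRC, SLIRP and ELAC2, the gene of highest mean in each nuclear list, any past the threshold, and the 3 genes most like the summed mRNAs. Genes whose groups did not overlap, and nuclear copies, were named after their values were seen. Deviations from the group mean correlated between same-numbered control and IL-10 libraries, at 0.366, 0.605 and 0.726 for pairs 1, 2 and 3 over 11590 genes of mean at least 50 outside the members, against 0.208 for control replicate 1 with IL-10 replicate 3 and 0.177 for control replicate 3 with IL-10 replicate 1. The numbers were therefore taken to pair the samples, although the labels give only a shared number. Over 15 members the same-numbered correlations were 0.463, 0.774 and 0.863, and control replicate 1 correlated more with IL-10 replicate 3 (0.574) than with its own number. 1 cell type marker list is not reported here.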

Additional observations from a re-analysis of the deposited data

How the results depend on the processing

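Across 21 alternatives, limma, edgeR and DESeq2 called 0 genes and 0 members, except that pairs 1 and 3 alone with the replicate block called 10 genes and 1 member, MT-ND4L (log2 fold change 0.22), and 0 without the block, a fit added after seeing the data. With the replicate block on all 6 libraries 0 genes were called, 512 genes and 1 member had an unadjusted p under 0.05 (limma), and no call changed. In the blocked fit of pairs 1 and 3, with 1 residual degree of freedom, 1008 of 21946 genes and 5 of 16 members lay under 0.05 unadjusted. With sample weights 2519 genes and 1 member did. The members share the same libraries, so such counts describe these fits only. Direction was not stable: 47 of 336 member comparisons and 21 of 189 of the named nuclear genes changed sign, while MT-ND4L and MT-ATP8 did not in these alternatives. The median of all genes was -0.08 with equal library totals, where that of the members was 0.02. Without IL-10 replicate 3 the members' median was 0.30, and without control replicate 3 it was 0.03. Leaving out 1 library at a time, the difference in log2 ratio ran from -0.46 to 0.14 for MT-RNR1 to MT-RNR2, from -0.073 to 0.022 for MT-ND6 to MT-ND5 (0.000501 without IL-10 replicate 3), from 0.43 to 0.89 for MT-ATP8 to MT-ATP6 and from 0.04 to 0.27 for MT-ND4L to MT-ND4. The sign changes of the first and second ratio came without control replicate 2 and, for the second, also without IL-10 replicate 3, and the cause was not tested. Counting error is wide for MT-ATP8, at 16 to 55 reads, and for MT-TF, at 0 to 2 reads.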
